A study of Mus musculus with 12 samples.

Results

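The difference between 2 mouse cell lines in their early response to phorbol 12-myristate 13-acetate (PMA) was measured gene by gene, as the PMA response of the line without HP1γ minus the PMA response of the line given HP1γ back. All 12 of the 12 RNA-seq libraries of the series entered this comparison, in 4 groups of 3. Both lines derive from mouse embryonic fibroblasts (MEF). In the knockout line (KO here, R in the series' design text), the gene for HP1γ, Cbx3, is knocked out. In the other line (HPg), HP1γ expression was restored. Each line was harvested untreated (groups HPg and KO) or after 30 min in 100 nM PMA, which was dissolved in DMSO (groups HPg PMA and KO PMA). All cells grew in DMEM with fetal calf serum to near confluence. Each genotype is represented by 1 line, so the genotype and the line cannot be told apart. The promoter that drives the restored HP1γ, the part of Cbx3 that was removed and the vehicle of the untreated cells are stated in no label.

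PMA mimics the lipid second messenger diacylglycerol and activates protein kinase C. Through the Ras, Raf and MAP kinase cascade this leads within minutes to transcription of the immediate-early genes, most of which encode transcription factors (the Fos, Jun and Egr families) or feedback regulators such as MAP kinase phosphatases. HP1γ is a heterochromatin protein that binds methylated lysine 9 of histone H3. It is also found within the bodies of transcribed genes and has been linked to RNA polymerase II elongation and to splicing.

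Total counts per library ranged from 111458145 to 159929347, and 3 abundant noncoding RNAs (Rpph1, Rn7sk and Rmrp) took 8.59% to 19.2% of them. Levels below are CPM, read counts relative to a library's total, scaled by TMM factors. Of 37310 genes, 16630 were abundant enough to be tested. Of 11 fibroblast markers, 9 averaged over 1 CPM, and their summed level was 8717 to 14178 CPM. The marker lists of other cell types summed to 211 to 429 CPM (neural), 59.7 to 133 (cartilage and bone), 21.6 to 79.2 (muscle), 23.7 to 63.7 (adipocyte), 6.47 to 23.2 (endothelial), 8.36 to 17.8 (epithelial) and 1.80 to 4.33 (blood and immune). On average, 4 of 9 neural, 4 of 8 cartilage and bone and 1 of 7 muscle markers were over 1 CPM. So were 3 of 6 adipocyte, 4 of 7 endothelial, 3 of 8 epithelial and 1 of 8 blood and immune markers. Among the others, Myod1, Myog, Adipoq, Cdh5, Tie1, Cd3e, Tyrobp, Tubb3 and Sox2 averaged under 0.01 CPM. The cartilage and bone, epithelial and endothelial sums were higher in every KO and KO PMA library than in every HPg and HPg PMA library. The part of these markers in the results was not tested. In bulk RNA, a change in the make-up of a culture and a change in RNA per cell cannot be told apart. The labels call the libraries biological replicates of a line, and p-values measure the spread between them. Cbx3 itself was measured at 37.1, 37.4 and 41.5 CPM in HPg, 43.1, 33.8 and 38.9 CPM in HPg PMA, 35.5, 39.0 and 35.0 CPM in KO, and 33.3, 26.9 and 35.2 CPM in KO PMA. The lines overlapped without PMA and with PMA, so the level of the Cbx3 transcript does not check the genotype labels, although every KO PMA library was below every untreated HPg library. Its PMA response differed between the lines by -0.21 log2 (SE 0.16, edgeR adjusted p = 0.714).

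No gene's PMA response differed between the lines at an adjusted p below 0.05 in edgeR's quasi-likelihood test with the replicate number as a block (0% of 16630 genes called in either direction). Fosl1, which encodes the AP-1 subunit FRA-1, came nearest at an adjusted p of 0.0541, and the next gene was at 0.629. At an unadjusted p below 0.05 the difference was above 0 (larger in KO) for 349 genes, or 2.1%, and below 0 for 926 genes, or 5.57%. These 1275 genes became 494 without KO library 2, 647 without HPg PMA library 1, 816 without KO PMA library 1 and 2478 without HPg PMA library 2. DESeq2 with the same design called 1 gene, Fosl1, at an adjusted p of 2.15e-06. The differences were small across the transcriptome. Their median was 0.01 log2, 25% of them lay below -0.22 and 25% above 0.19, and the 5th and 95th percentiles were -0.81 and 0.64. Of all 16630 genes tested, 941 differed by 1 log2 or more. Of the 12128 averaging at least 1 CPM, 23 differed by 1 log2 or more, 6 above 0 and 17 below 0. The median standard error was 0.192 for the difference against 0.136 for the PMA response of either line, so a difference of this size is less precisely known than either response.

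Each line responded to PMA on its own. In HPg, 1433 genes (8.62%) rose and 1029 genes (6.19%) fell. In KO, 1130 genes (6.79%) rose and 1091 genes (6.56%) fell. Of the genes that rose, 783 rose in both lines, which is 54.6% of the HPg calls and 69.3% of the KO calls. Of the genes that fell, 458 fell in both lines, 44.5% of the HPg calls and 42.0% of the KO calls. No gene rose in 1 line and fell in the other by this test. These calls rest on the pairing by replicate number: without the replicate block, 421 genes rose and 153 fell in HPg, and 468 rose and 271 fell in KO. Scaling also moved the balance of the calls, from 1433 against 1029 to 1001 against 1140 in HPg and from 1130 against 1091 to 692 against 1974 in KO with library size alone, and to 1121 against 1732 and 949 against 1535 with upper-quartile factors.

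Most genes with the largest PMA responses had a larger response in KO, a count with no test of its own. Among 194 genes averaging at least 1 CPM whose mean response of the lines was 1 log2 or more, the difference was above 0 for 153 (78.9%), against 51.4% of all genes tested. The median response of these 194 genes was 1.44 log2 in HPg and 1.63 in KO, and the median difference was 0.29. For 59 of them the difference was above 0 at an unadjusted p below 0.05 (2.1% of all genes), and for 3 it was below 0 (5.57%). Taken from each replicate number alone, the median was 0.45, 0.10 and 0.35, with 156, 119 and 164 genes above 0. For 57 genes with a mean response above 2 log2 the median difference was 0.45, with medians of 2.72 in HPg and 3.01 in KO. At the other end, 73 genes with a mean response below -1 had a median of -1.18 in HPg and -1.30 in KO, and 22 of them (30.1%) had a difference above 0. The responses of weakly responding genes centred near equality: the median difference was 0.03 for 5774 genes with a mean response between -0.5 and 0, and 0.00 for 5137 genes between 0 and 0.5. These bins were formed from the same libraries as the difference and are a description.

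**Figure D1:**
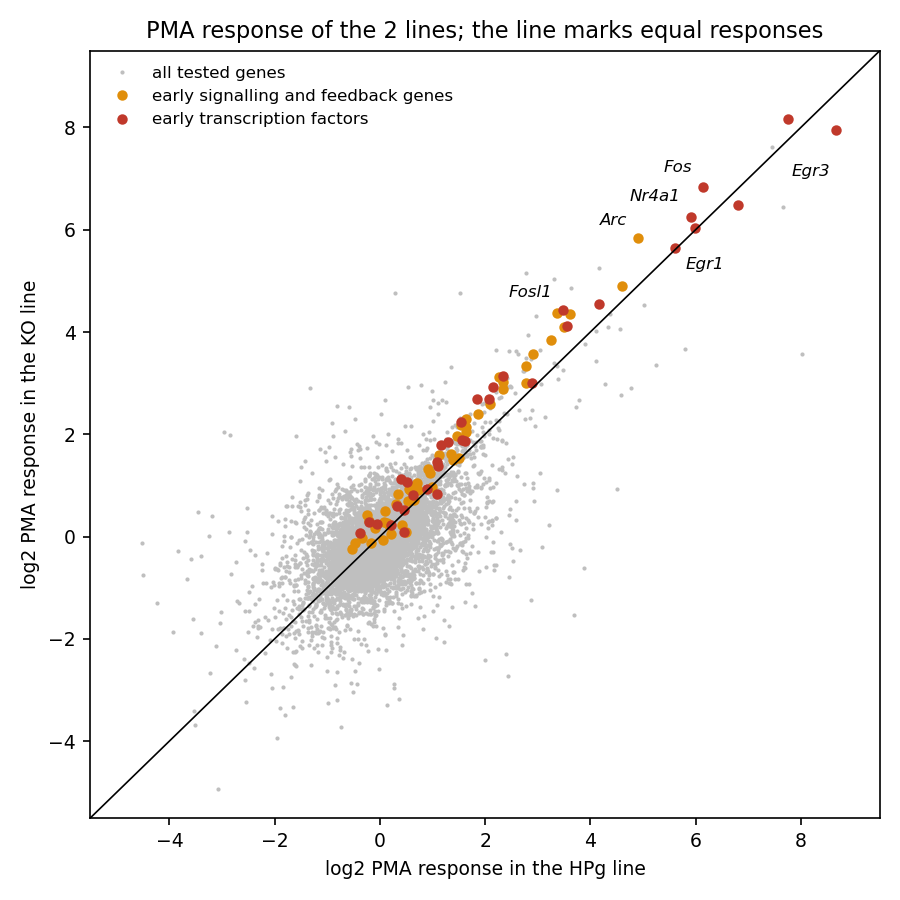
Log2 PMA response of each of 16630 tested genes (points) in the HPg line (horizontal axis) and the KO line (vertical axis). The diagonal marks equal responses; most early transcription factor genes (30 of 34) and early signalling genes (46 of 51) lie above it, and Egr3 lies below it.

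Of the 12 genes named above 0, 5 are immediate-early transcription factors and 4 are early signalling genes. Of 34 tested members of this list, 28 rose in HPg (8.62% of all genes) and 29 rose in KO (6.79%), 27 of them in both. The median response was 1.55 log2 in HPg and 1.87 in KO. The difference was above 0 for 30 of 34, with a median of 0.36, and at an unadjusted p below 0.05 it was above 0 for 13 (2.1% of all genes) and below 0 for 1 (5.57%). By replicate number the list's median was 0.52, 0.20 and 0.31. The 4 members with a difference below 0 were Crem, Egr3, Egr4 and Klf5.

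Fosl1 was at 4.52, 3.88 and 4.58 CPM in HPg, 48.2, 47.1 and 48.7 in HPg PMA, 3.48, 3.35 and 3.48 in KO, and 75.8, 77.3 and 70.3 in KO PMA. All 3 KO libraries were below all HPg libraries without PMA, and all 3 KO libraries were above all HPg libraries with it. Fosl1 rose 11.1-fold in HPg and 21.7-fold in KO, a difference of 0.96 log2 (SE 0.13, edgeR adjusted p = 0.0541), or 1.95-fold, with 1.03, 0.92 and 0.92 in the 3 replicate numbers. Leaving out HPg library 2 gave 1.04 at an adjusted p of 0.0413, and the other alternatives are given in the closing section.

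Myc, a transcription factor that drives growth genes, was at 14.8, 14.0 and 11.4 CPM in HPg, 33.0, 31.6 and 25.7 in HPg PMA, 12.7, 15.9 and 11.5 in KO, and 50.9, 49.8 and 38.2 in KO PMA. The untreated groups overlapped and the treated groups did not. The responses were 2.25-fold and 3.46-fold, a difference of 0.62 log2 (SE 0.14). Jun, the founding AP-1 subunit, was at 71.9, 73.8 and 53.8 CPM in HPg, 149, 190 and 152 in HPg PMA, 64.6, 73.1 and 59.9 in KO, and 218, 265 and 229 in KO PMA, again with treated groups that did not overlap. Its difference was 0.55 log2 (SE 0.14). Klf10, a Krüppel-like repressor induced by TGF-β, differed by 0.70 (SE 0.19) and Csrnp1, a nuclear protein with transactivating activity, by 0.85 (SE 0.24). The edgeR adjusted p was 0.629 for each of Myc, Jun, Klf10 and Csrnp1.

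Ordered by unadjusted p, the immediate-early genes Fos, Egr1 and Egr3 came behind the 12 named genes. Fos was at 2.53, 2.42 and 1.34 CPM in HPg, 131, 188 and 110 in HPg PMA, 4.19, 1.94 and 1.97 in KO, and 418, 250 and 238 in KO PMA. Treated KO libraries were all above treated HPg libraries, and the spread among the 3 KO PMA libraries was wide. The difference of 0.69 log2 had an SE of 0.34. Egr1 was at 459, 662 and 455 CPM in HPg PMA and 669, 703 and 600 in KO PMA, groups that overlapped. Its response was 5.60 log2 in HPg and 5.64 in KO, a difference of 0.03 (SE 0.48). Egr3 reached 13.1 to 22.1 CPM in HPg PMA and 34.6 to 42.4 in KO PMA, yet its difference was -0.71 (SE 0.50), since its untreated levels, all under 1 CPM, were 0.0316, 0.0671 and 0.0228 in HPg and 0.197, 0.115 and 0.157 in KO. Fos, Egr1 and Egr3 were singled out after their values were seen.

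**Figure D2:**
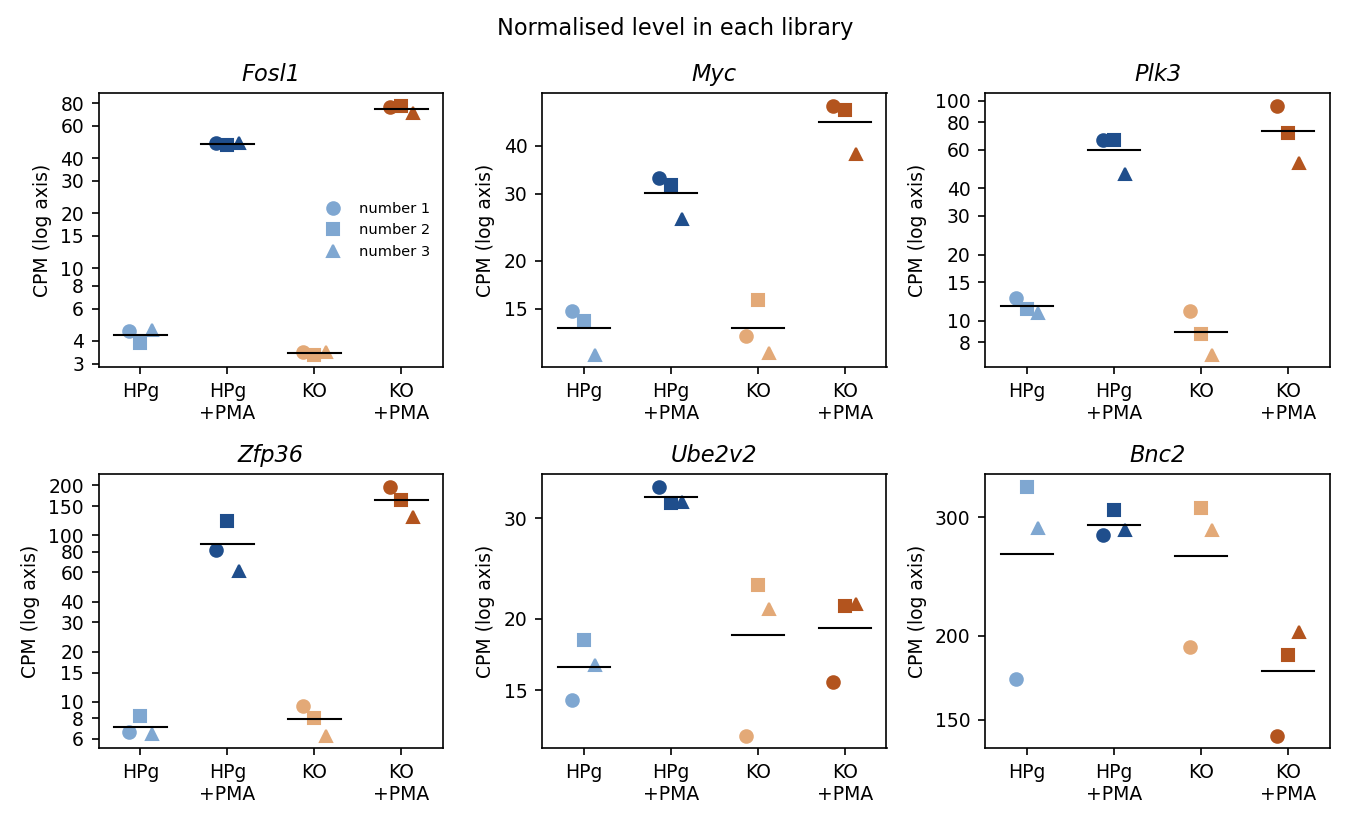
TMM-scaled CPM on a logarithmic axis for 6 genes in each of the 12 libraries, by group; marker shapes give the replicate number and bars the group mean. Treated KO libraries lie above treated HPg libraries for Fosl1, Myc and Zfp36, overlap them for Plk3, and lie below them for Ube2v2 and Bnc2.

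Early signalling and feedback genes showed the same direction. Of 51 tested, 36 rose in HPg (8.62% of all genes) and 36 in KO (6.79%), 34 of them in both, and 2 fell in HPg (6.19%). The difference was above 0 for 46, with a median of 0.34 and medians of 0.48, 0.23 and 0.30 by replicate number. At an unadjusted p below 0.05 it was above 0 for 25 (2.1% of all genes) and below 0 for 1 (5.57%), Spred2, an inhibitor of the MAP kinase cascade, at -0.41 (SE 0.17). Trib1, a pseudokinase that directs protein degradation, was at 14.6, 15.5 and 14.0 CPM in HPg, 52.6, 107 and 62.2 in HPg PMA, 13.5, 17.5 and 12.1 in KO, and 129, 143 and 101 in KO PMA. Treated groups overlapped for Trib1, and its difference of 0.85 (SE 0.21) was 1.42, 0.25 and 0.92 by replicate number. Zfp36, which encodes tristetraprolin, an RNA-binding protein that speeds decay of AU-rich mRNAs, was at 6.57, 8.24 and 6.40 CPM in HPg, 82.2, 122 and 61.0 in HPg PMA, 9.48, 8.06 and 6.27 in KO, and 195, 164 and 128 in KO PMA. Its untreated groups overlapped and its treated groups did not, and it rose 12.2-fold in HPg and 20.5-fold in KO (difference 0.75, SE 0.21). Plk3, a stress-responsive polo-like kinase, rose 5.06-fold and 8.07-fold (0.67, SE 0.16), although its treated groups overlapped at 66.5, 66.1 and 46.3 CPM in HPg PMA and 94.6, 71.3 and 52.2 in KO PMA. Ier3, an early gene that modulates ERK signalling and survival, differed by 0.55 (SE 0.15). Map3k6, a kinase upstream of the stress-activated MAP kinases that is in neither early list, differed by 0.51 (SE 0.14), and Ankrd9, also outside them, by 0.68 (SE 0.19). Among the MAP kinase phosphatases, Dusp5, which acts on nuclear ERK, differed by 0.67, Dusp6, which acts on cytoplasmic ERK, by 0.50, and Dusp1 by 0.47. The epidermal growth factor receptor ligands Hbegf, Ereg and Areg differed by 0.66, 0.54 and 1.01 (SE 0.44 for Areg), and the receptor's feedback inhibitor Errfi1 by 0.58. The level of Hbegf was 0.23 log2 higher in KO without PMA and 0.87 higher with it. Ereg and Areg were lower in KO both without PMA (-0.66 and -1.22) and with it (-0.10 and -0.36). Areg was at 0.0717, 0.0790 and 0.164 CPM in untreated KO. Arc, a target of serum response factor, rose to 135, 328 and 153 CPM in HPg PMA and 322, 359 and 283 in KO PMA, with a difference of 0.94 (SE 0.37). None of these genes had an edgeR adjusted p below 0.629. The Dusp genes, receptor ligands, Errfi1 and Arc were singled out from the list after their values were seen.

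**Figure D3:**
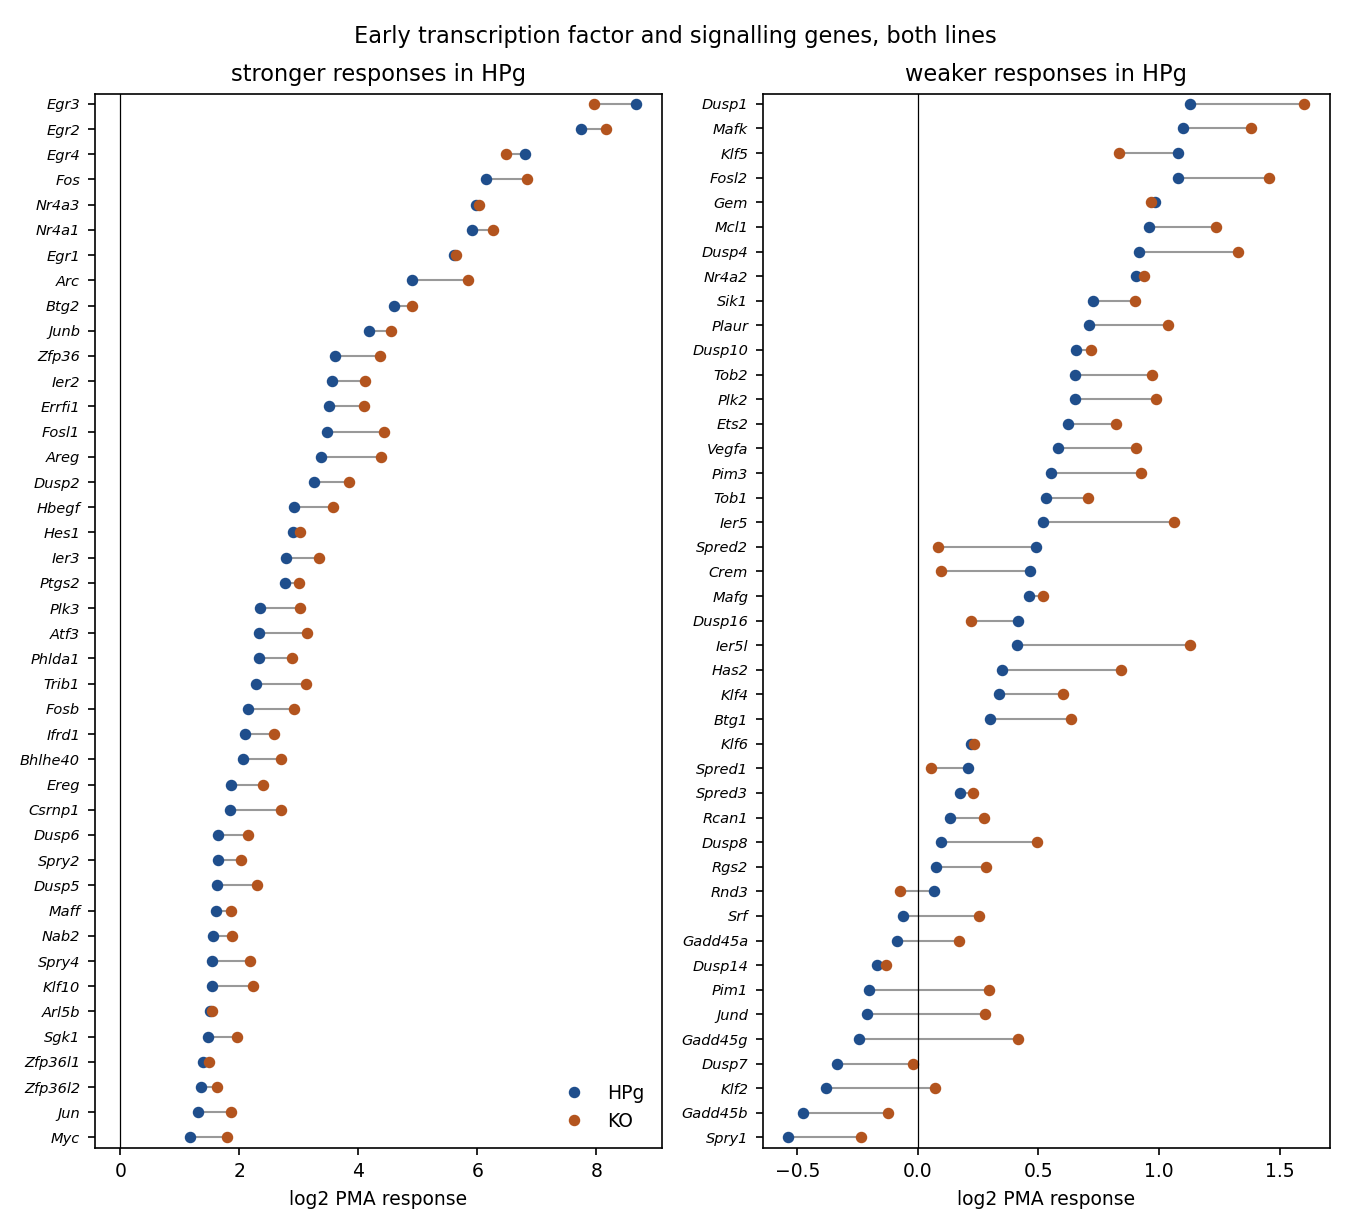
Log2 PMA response in HPg (blue) and KO (orange) for the 85 tested members of the early transcription factor and early signalling lists, in order of the HPg response, split over 2 panels with different scales. The KO point lies to the right of the HPg point for all but 9 genes.

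In the early gene lists the lines differed more with PMA than without. Without PMA, the early transcription factors had a median KO minus HPg difference in level of 0.09 log2 and were higher in KO for 19 of 34. With PMA the median was 0.50, and 29 of 34 were higher in KO. The early signalling genes went from 0.00 (26 of 51) to 0.35 (39 of 51), and the 194 strong responders from 0.02 (102 of 194) to 0.32 (154 of 194). Over all tested genes the medians were 0.02 without and 0.01 with PMA. In some other lists the lines differed without PMA as much or more. The genes spanning at least 300 kb had a median of 0.24 without PMA and -0.10 with it, Zfp genes 0.15 and -0.02, replication-dependent histone genes -0.25 and 0.14, and heat shock and stress genes -0.12 and 0.11. Some lists outside the early lists also differed more with PMA. NF-kB genes were at 0.36 and 0.57, and targets of serum response factor and YAP at 0.14 and 0.36. The p53 targets were at 0.10 and 0.22. For Fosl1 the untreated level was lower in KO and the treated level higher, by -0.33 and 0.63 log2 on this scale. This split was computed after the differences were seen and has no test.

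NF-kB is a family of transcription factors held in the cytoplasm by inhibitors until a stimulus releases them. Of 38 tested subunits, inhibitors and targets, 23 rose in HPg (8.62% of all genes) and 29 in KO (6.79%). The difference was above 0 for 25, with a median of 0.14 and medians of 0.46, 0.04 and 0.17 by replicate number, and the median was 0.0054 without HPg PMA library 1 and 0.25 without KO library 1. At an unadjusted p below 0.05 it was above 0 for 6 (2.1% of all genes) and below 0 for 0 (5.57%). Nfkbiz, which encodes the nuclear inhibitor-like regulator IκBζ and had the lowest unadjusted p of the list, was at 14.8, 12.9 and 17.5 CPM in HPg, 95.1, 94.3 and 146 in HPg PMA, 16.03, 12.6 and 14.5 in KO, and 161, 130 and 192 in KO PMA, so the treated groups overlapped. Its difference was 0.59 (SE 0.16), with 0.65, 0.50 and 0.66 by replicate number. Nfkbia, which encodes the cytoplasmic inhibitor IκBα, differed by 0.65, Zc3h12a, an endonuclease that degrades cytokine mRNAs, by 0.61, and Socs3, an inhibitor of cytokine receptor signalling, by 0.61. The chemokine gene Ccl2, in contrast, rose by 3.05 log2 in HPg and 2.99 in KO, and Nfkb1 differed by 0.01. Each of these had an edgeR adjusted p of 0.629 or more.

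Targets of serum response factor and YAP had a median difference of 0.19 (24 of 33 above 0). Ccn1, a matricellular protein gene, was at 138, 215 and 105 CPM in HPg, 566, 971 and 409 in HPg PMA, 159, 214 and 105 in KO, and 1093, 1131 and 653 in KO PMA. The treated groups overlapped, and the difference was 0.55 (SE 0.17). The kinases that carry the PMA signal were centred near 0: 13 of 31 protein kinase C isoforms and MAP kinase pathway genes were above 0, with a median of -0.03, and those at an unadjusted p below 0.05 were Braf at -0.54, Prkd1 at -0.54 and Rps6ka3 at -0.37.

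The heat shock and unfolded protein response list had a median of 0.18 (24 of 28 above 0). Its lowest unadjusted p belonged to Chac1, a glutathione-degrading enzyme of the integrated stress response, at 0.48, and Ddit4, an inhibitor of mTORC1, was at 0.53. Replication-dependent histone genes had a median of 0.31 (52 of 55 above 0), with 4 above 0 (2.1% of all genes) and 0 below 0 (5.57%) at an unadjusted p below 0.05. They differed in how the value arose: their median PMA response was -0.37 in HPg and -0.04 in KO, and 0 rose (8.62% of all genes) and 7 fell (6.19%) in HPg. Ribosomal protein genes had a median of 0.17 (65 of 77), which was -0.07 without HPg library 1 and -0.03 without KO PMA library 2. Median differences near 0 were measured for p53 targets (0.08, 15 of 23 above 0), extracellular matrix genes (0.04, 26 of 39), G1/S genes (0.04, 18 of 29), G2/M genes (0.02, 15 of 28), HP1 proteins and heterochromatin factors (-0.03, 11 of 26), splicing factors (-0.07, 14 of 40), interferon-stimulated genes (-0.09, 14 of 32), mitochondrially encoded genes (-0.10, 9 of 22), small nucleolar RNAs (0.08, 5 of 8) and clustered protocadherins (-0.11, 8 of 22). Each of these medians took the opposite sign under at least 1 alternative setting. Of the 20 lists, 7 kept 1 sign under all alternatives: both immediate-early lists, NF-kB, serum response factor and YAP targets, heat shock and stress genes, Zfp genes and histone genes. Their size moved when 1 library was left out: from 0.26 to 0.48 for early transcription factors, 0.31 to 0.39 for early signalling genes, 0.11 to 0.23 for serum response factor and YAP targets, 0.10 to 0.25 for heat shock and stress genes and -0.19 to -0.09 for Zfp genes. Histone genes ranged from 0.16 without HPg PMA library 1 to 0.56 without HPg PMA library 2. Correction for GC content, transcript length and gene span brought the medians of all 7 lists nearer to 0, with values given below.

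**Figure D4:**
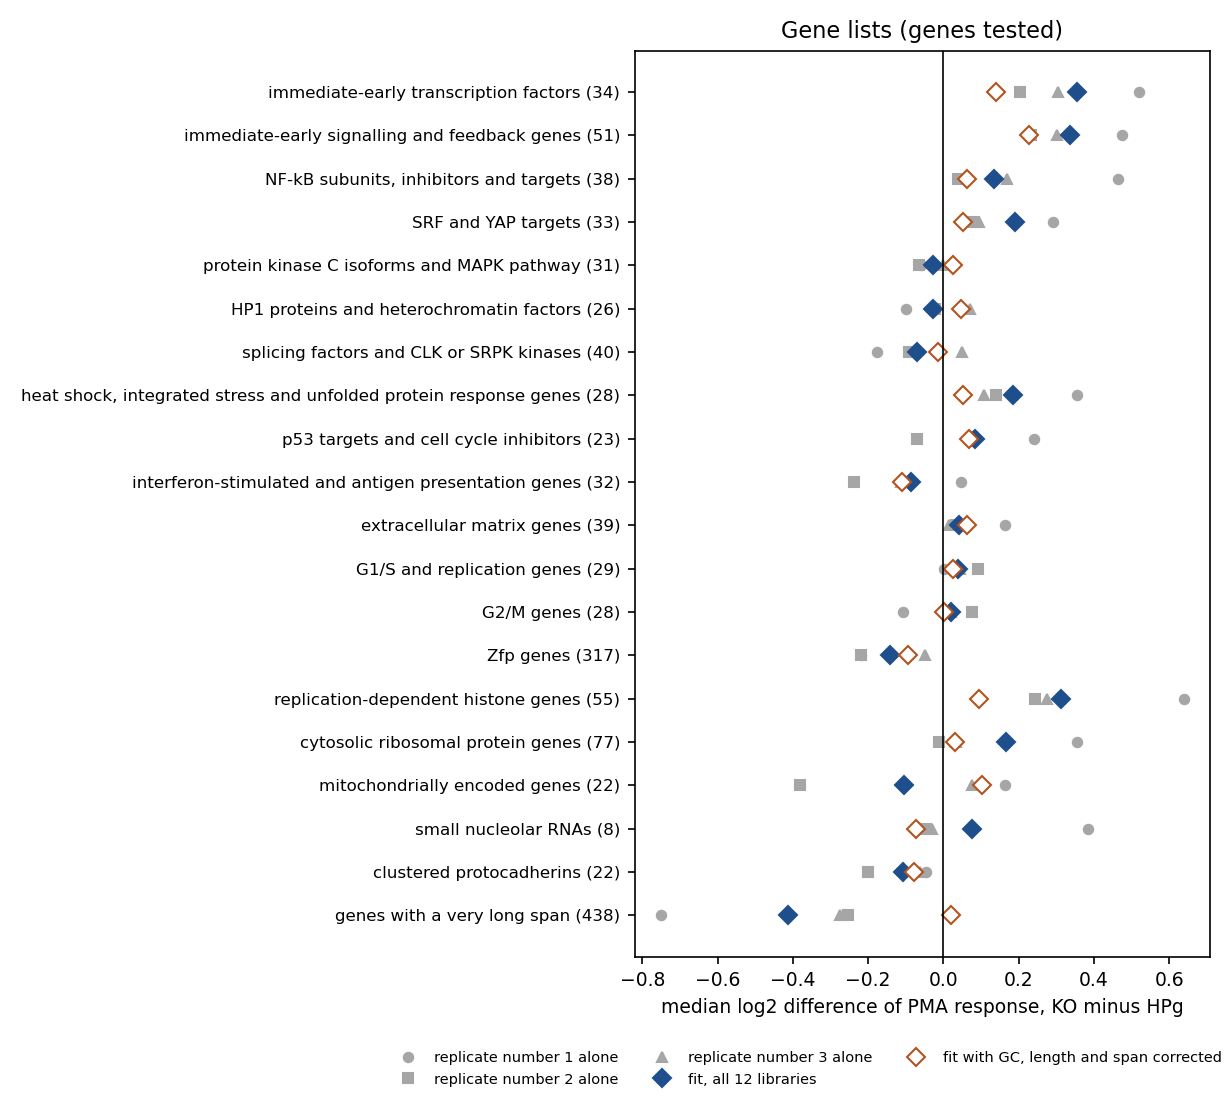
Median log2 difference of PMA response (KO minus HPg) for 20 gene lists: filled diamonds for all 12 libraries, open diamonds after correction for GC content, transcript length and gene span, grey marks for each replicate number alone. Early gene medians move from 0.36 and 0.34 to 0.14 and 0.23 after correction, and the median of genes with a very long span moves from -0.41 to 0.02.

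The genes named below 0 all had a GC content under the 50.8% median of the tested genes. Ube2v2, a partner of the ubiquitin-conjugating enzyme Ube2n in building lysine 63-linked chains, was at 14.4, 18.3 and 16.6 CPM in HPg, 34.0, 31.9 and 32.1 in HPg PMA, 12.5, 22.9 and 20.8 in KO, and 15.5, 21.02 and 21.2 in KO PMA. All HPg PMA libraries were above every other library, and KO PMA overlapped KO. Its response was 1.01 log2 in HPg and 0.05 in KO, a difference of -0.96 (SE 0.20), with -0.92, -0.92 and -0.93 by replicate number. Fgf10, a fibroblast growth factor that signals to epithelia, was at 74.1, 87.0 and 95.1 CPM in HPg, 90.9, 77.0 and 87.7 in HPg PMA, 60.1, 81.7 and 81.6 in KO, and 44.1, 46.6 and 53.3 in KO PMA. Here KO PMA was below every other library, and the difference was -0.64 (SE 0.16). Bnc2, a zinc finger gene spanning 400 kb, was at 172, 333 and 289 CPM in HPg, 282, 307 and 287 in HPg PMA, 192, 309 and 287 in KO, and 142, 187 and 202 in KO PMA, with a difference of -0.75 (SE 0.19). Further named genes below 0 were Tprg (-0.93), Lcorl (-0.87), the zinc finger genes Zfp758 (-0.86) and Zfp386 (-0.84), Pibf1 (-0.79), which encodes a protein of centriolar satellites, Rfx3 (-0.76), a regulator of ciliary genes, Gmds (-0.75), an enzyme of GDP-fucose synthesis, and Cenpp (-0.68), which encodes a kinetochore protein. The edgeR adjusted p was 0.629 for each of these genes. Exons of Cenpp, Fgf10, Lcorl, Pibf1, Jun and Plk3 overlap tested genes on the opposite strand, and no label states whether the counting used strand.

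As a class, 438 genes spanning at least 300 kb had a median difference of -0.41, with 64 above 0. At an unadjusted p below 0.05, 155 of them were below 0 (5.57% of all genes) and 1 was above (2.1%). The median was -0.75, -0.25 and -0.28 by replicate number. Zfp genes, most of which encode zinc finger proteins, had a median of -0.14 (104 of 317 above 0), with 44 below 0 (5.57% of all genes) and 1 above 0 (2.1%) at an unadjusted p below 0.05. Their median PMA response was -0.08 in HPg, where 49 fell (6.19% of all genes) and 18 rose (8.62%), and -0.25 in KO, where 88 fell (6.56%) and 17 rose (6.79%).

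The difference followed GC content and gene span across the whole transcriptome. Over 15764 genes with a GC content and span (94.8% of those tested), Spearman's rho between the difference and the GC content of a gene's transcripts was 0.483, and between the difference and its genomic span -0.359. Genes are not independent, and all points share the same 12 libraries, so these are descriptions. In 10 equal bins, the median difference went from -0.27 at a median GC content of 41.2% to 0.22 at 59.9%. Over all replicate numbers the trend was larger in the HPg response: its median went from 0.22 to -0.20 over the same bins (rho -0.318), while the KO response stayed between -0.05 and 0.02 (rho 0.0737). By replicate number the rho was -0.400, -0.149 and -0.183 in HPg and 0.111, 0.174 and -0.0944 in KO, so in number 2 the KO response had the larger trend. For span, the median difference went from 0.18 at a median span of 1.22 kb to -0.28 at 204 kb, the KO response from 0.08 to -0.27 (rho -0.247) and the HPg response from -0.09 to 0.03 (rho 0.0770). By replicate number the rho with span was -0.187, -0.311 and -0.103 in KO and 0.333, -0.172 and 0.0311 in HPg, where it changed sign and was the larger of the lines in number 1. GC content and span are themselves related (rho -0.280), and each trend was present at a fixed level of the other. Among genes with spans over 38.0 kb (the upper tertile), the median difference was -0.25 for low, -0.08 for middle and 0.07 for high GC content. Among genes with spans under 11.9 kb (the lower tertile) it was -0.06, 0.11 and 0.21.

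**Figure D5:**
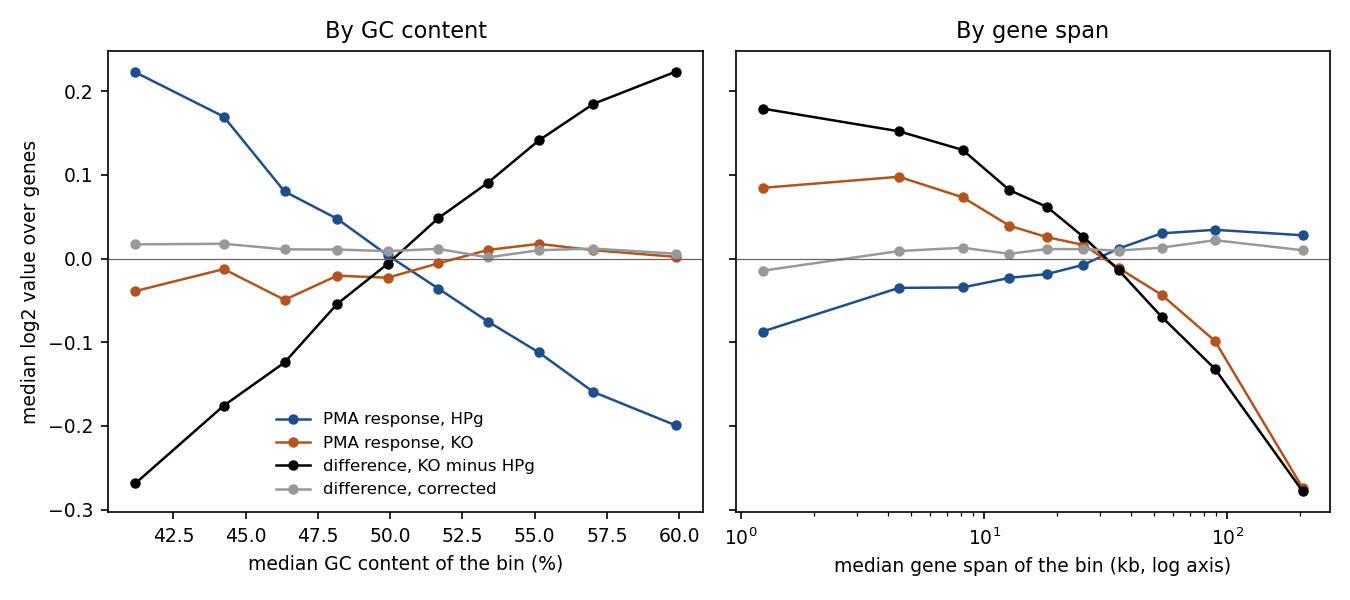
Median log2 PMA response of HPg (blue) and KO (orange), their difference (black) and the difference after correction (grey) in 10 equal bins of GC content (left) and gene span (right, logarithmic axis). The difference rises from -0.27 to 0.22 with GC content and declines from 0.18 to -0.28 with span, and the corrected values lie near 0 in every bin.

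The trends were uneven between replicate numbers. The rho with GC content was 0.456, 0.432 and 0.152 in numbers 1, 2 and 3, and that with span was -0.414, -0.171 and -0.211. The spread of the difference across genes (median absolute deviation) likewise was 0.495, 0.366 and 0.226 log2. Single libraries carried their own trends: the rho of a library's deviation from the mean of all libraries with GC content ranged from -0.334 in HPg PMA library 1 to 0.299 in KO PMA library 1, and with span from -0.396 in KO PMA library 1 to 0.379 in KO library 2. Whether GC content and span moved with the difference through the cells or through the libraries was not tested.

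With each library's smooth trend on GC content and transcript length removed, the interquartile range of the difference went from 0.412 to 0.283 log2, and to 0.252 with span removed as well. The smallest edgeR adjusted p was then 0.993 and 1.00, and at an unadjusted p below 0.05 the difference was above 0 for 260 genes (1.56%) and below 0 for 506 (3.04%), then 227 (1.37%) and 348 (2.09%). Several patterns kept their direction after both steps, most of them at a smaller size. The median of the strongest responders (mean response above 2 log2) was 0.33, against 0.45, with 44 of 57 above 0, and that of genes with a mean response from 1 to 2 was 0.18, against 0.27, with 107 of 137 above 0. Early transcription factors had 24 of 34 above 0 and a median of 0.14, and early signalling genes 44 of 51 and a median of 0.23. Of all genes tested, 51.9% were above 0 after the same correction. Fosl1 stood at 0.74, Trib1 at 0.70, Klf10 at 0.61, Zfp36 at 0.55 and Myc at 0.40. Jun went from 0.55 to 0.32 and Ier3 from 0.55 to 0.33. Of the genes named below 0, Ube2v2 stood at -0.58 and Zfp386 at -0.70. Cenpp went from -0.68 to -0.24, Fgf10 from -0.64 to -0.25 and Pibf1 from -0.79 to -0.36. Nfkbiz changed little, from 0.59 to 0.60, and the differences of Ereg (0.54 to 0.83), Ifrd1 (0.49 to 0.66) and the kinase gene Sgk1 (0.49 to 0.65), named after their values were seen, were larger after correction. The genes spanning at least 300 kb had a median of -0.26 after the GC and length step and 0.02 after the span step, where 230 of 438 were above 0, and Bnc2 went from -0.75 to -0.41. Histone genes went from 0.31 to 0.09 and Zfp genes from -0.14 to -0.09. Targets of serum response factor and YAP went from 0.19 to 0.05, heat shock and stress genes from 0.18 to 0.05 and NF-kB genes from 0.14 to 0.06. The early genes were GC-rich and short themselves, with a median GC content of 56.2% and span of 7.50 kb for the transcription factors and 53.02% and 8.83 kb for the signalling genes, against 50.8% and 21.7 kb over all tested genes.

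Promoter windows from RefSeq (GRCm38.p6, 250 bases before to 50 after the start) were given for 7 of the 12 genes named above 0. They were searched on both strands for the serum response element, the AP-1 site (TGACTCA or TGAGTCA), the CRE core (TGACG), the full CRE (TGACGTCA), the NF-kB site and the EGR site (GCGGGGGCG or GCGTGGGCG). A window with a full CRE also holds the core. Of these 7 genes, 1 held a serum response element (Zfp36), 1 an AP-1 site (Csrnp1), 1 an EGR site (Zfp36) and 3 a CRE core. Of the 10 of 12 genes below 0 with a window, 4 held a CRE core (40%) and 0 held any of the other motifs. Over the 11324 tested genes with a window, 1.69% held a serum response element, 4.88% an AP-1 site, 7.38% an EGR site, 33.5% a CRE core, 3.34% a full CRE and 8.39% an NF-kB site. Of 94 genes of the immediate-early and NF-kB lists with a window, 5 (5.32%) held a serum response element, 8 (8.51%) an AP-1 site, 16 (17.0%) an EGR site, 50 (53.2%) a CRE core, 11 (11.7%) a full CRE and 25 (26.6%) an NF-kB site. The median GC content of these windows was 64.0% against 60.3% over all tested genes, and the matched letters are a description and not bound sites. The 250 bases before the start are given here for Zfp36 (chr7:28379229-28379478, minus strand), Csrnp1 (chr9:119983024-119983273, minus strand) and Plk3 (chr4:117133964-117134213, minus strand). These 3 were picked from the genes named above 0 whose windows hold motifs searched. A further gene of the 7 holds a CRE core and is not shown. Csrnp1 has 4 windows, and the window shown was picked because it holds AP-1 sites, which its other windows lack. Capitals mark the motif matches: an EGR site followed by a serum response element in Zfp36, 2 AP-1 sites with a CRE core between them in Csrnp1, and 2 CRE cores in Plk3.
Zfp36: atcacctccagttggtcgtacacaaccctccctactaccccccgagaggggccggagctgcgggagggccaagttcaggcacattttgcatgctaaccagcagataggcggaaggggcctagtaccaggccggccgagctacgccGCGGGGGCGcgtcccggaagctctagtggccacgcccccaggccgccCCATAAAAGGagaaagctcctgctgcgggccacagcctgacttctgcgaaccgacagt
Csrnp1: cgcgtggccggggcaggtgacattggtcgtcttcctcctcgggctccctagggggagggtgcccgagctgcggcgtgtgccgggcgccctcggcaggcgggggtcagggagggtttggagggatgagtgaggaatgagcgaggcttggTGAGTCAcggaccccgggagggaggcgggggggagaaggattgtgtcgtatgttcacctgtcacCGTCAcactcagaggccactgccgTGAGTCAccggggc
Plk3: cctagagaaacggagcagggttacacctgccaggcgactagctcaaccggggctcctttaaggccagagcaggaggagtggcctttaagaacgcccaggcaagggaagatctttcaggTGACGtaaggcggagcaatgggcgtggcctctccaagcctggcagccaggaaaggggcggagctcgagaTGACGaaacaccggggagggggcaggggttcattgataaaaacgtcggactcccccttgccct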

How the data were processed

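RNA-seq libraries were made from rRNA-depleted total RNA with a directional kit and read as paired ends, per the labels' protocols. The authors deposited raw read counts per gene (counts, not normalized). They used cutadapt 1.11, STAR 2.5.0a and featureCounts 1.4.6-p3 and the mm9 build, per the submitters' processing notes. Raw counts were tested in R 4.3.3 with edgeR 4.0.16 (TMM, filterByExpr with a minimum count of 10, robust quasi-likelihood test, Benjamini-Hochberg over 16630 genes), with a coefficient for each of the 4 groups and the replicate number as a block. The script was tested on simulated data. Same-numbered libraries deviated together (r from 0.159 to 0.558 over 18 pairs, against -0.517 to 0.163 over 36 pairs of different number). The numbers come from the labels. Deviations were taken from the mean of each group's libraries, which sets the 2 kinds of pair against each other in part by construction. Values by replicate number are differences of log2 CPM with a prior count of 2. No replicate pair agreed within sampling noise (chi-square per degree of freedom at least 104). Symbols, biotypes, GC content, length and span come from GENCODE M21 (GRCm38), another build than the counts, and 32620 of 37310 gene IDs had a symbol. Corrections removed each library's spline trend (4 degrees of freedom). 

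Named genes were Cbx3, then 12 in each direction averaging at least 1 CPM in the highest group, with 1 sign in all 3 replicate numbers leaving out symbols of the Gm, Rik and clone kinds; since none was called, places were filled by unadjusted p. Up to 4 members per list followed, by unadjusted p. Members and lists were chosen with earlier results of these data known. Levels compared between lines, and genes said to be singled out, were added after their values were seen. Alternatives were other scalings, filters, DESeq2 1.42.0, no replicate block, each library or replicate number left out, chromosome medians removed, and 3 abundant noncoding RNAs left out. Depth was 111458145 to 159929347 counts per library, so counting error is small beside the spread between libraries for abundant genes. This does not hold for genes with few counts, such as Egr3 in untreated cells. A few genes that these rules select are not reported here.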

Additional observations from a re-analysis of the deposited data

How the results depend on the processing

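The count of 0 genes with a different response was 1 with upper-quartile factors, with DESeq2, with no filter beyond 1 count and with a filter of 1 CPM in 3 libraries, and that gene was Fosl1 each time (adjusted p = 0.039, 2.15e-06, 0.00299 and 0.0485, differences 0.99, 0.97, 0.96 and 0.98). Leaving out 1 library or 1 replicate number gave 0 to 1 genes: Fosl1 without HPg library 2 (1.04, adjusted p = 0.0413), and the processed pseudogene Gm6565, averaging under 1 CPM, without KO library 1 or without replicate number 1. Over all 26 alternatives Fosl1 lay between 0.72 and 1.04. Without the replicate block (the paired term), 574 genes responded to PMA in HPg and 739 in KO, against 2462 and 2221; leaving out libraries or numbers gave 331 to 3239 in HPg and 349 to 3606 in KO, the lowest in both without replicate number 3 and the highest in both without number 1. Without the block, 0 genes differed between the lines. In HPg the count was 1124 without HPg library 2, 1064 without HPg library 3 and 1348 without HPg PMA library 3; in KO it was 1158, 969, 1016 and 1071 without KO library 2, KO library 3, KO PMA library 2 and KO PMA library 3. The rho with GC content was 0.664 over genes averaging 1 CPM, 0.271 without a filter, -0.0254 after the GC and length correction and -0.0213 with span added. The rho with span was -0.531, -0.150, -0.167 and 0.0307 under the same settings, -0.516 with the 1 CPM filter, and -0.400 to -0.215 with libraries left out, the last without HPg PMA library 1. Cbx3 took the opposite sign (0.0162) after the GC and length correction and Pola1 (0.0309) with span added, while the other 56 of 58 named genes compared kept their sign. Apart from Cbx3, the genes compared had been picked for a low unadjusted p in these same libraries. A kept sign was therefore largely set by that choice and is no test of stability. The median difference of strong responders stayed between 0.19 and 0.39. For causes other than the corrections' own construction and fewer libraries or genes tested, the cause was not tested. List medians moved by less than the spread between replicate numbers in 484 of 520 comparisons. That spread is the standard deviation of the medians of the 3 single numbers, and the alternatives share most libraries with the main fit. The count is therefore no measure of stability: the NF-kB median of 0.0054, against 0.14, was within the spread.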

Other observations

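By gene class, the median difference was -0.18 for 263 lincRNA genes, 0.15 for 455 processed pseudogenes, which can share reads with their parent genes, and 0.01 for 13776 protein-coding genes. After correction for GC content, length and span these medians were -0.15, 0.01 and 0.01. In lincRNA genes the median PMA response was -0.08 in HPg and -0.36 in KO. Processed pseudogenes had medians of 0.51, -0.00 and -0.00 by replicate number.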
